A study of Mus musculus with 58 samples.

Results

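RNA of astrocytes, of the oligodendrocyte lineage and of neurons was followed through the microglia libraries of a tauopathy study, using 35 marker genes among the 47643 genes of each count file. The genes were taken from a list of markers of brain cells other than microglia and matched by symbol to their Ensembl identifiers. There were 11 astrocyte genes (Gfap, Aqp4, Aldh1l1, Slc1a2, Slc1a3, Sparcl1, Clu, Gja1, S100b, Atp1b2 and Ntrk2), 12 genes of the oligodendrocyte lineage (Mbp, Mog, Mag, Cnp, Mobp, Cldn11, Olig1, Olig2, Sox10, Pdgfra, Cspg4 and Trf) and 12 neuronal genes (Snap25, Syt1, Tubb3, Map2, Stmn2, Rbfox3, Gad1, Nefl, Nefm, Atp1b1, Meg3 and Mapt). Levels were read in 34 bulk libraries of mouse microglia in 8 groups, and 24 cortex samples of the same series were not analysed here.

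Wild-type primary microglia were kept for 24 h with tau fibrils of the full-length protein at 2 μg/ml (n = 4) or with vehicle (n = 4). Adult microglia came from 11-month-old male PS19 mice, which carry a P301S tau transgene (n = 4), and from non-transgenic NTG mice (n = 4). Primary IkbkbWT (n = 5) and IkbkbCA (n = 5) microglia all carried a stop-floxed transgene for constitutively active IKKβ, the kinase that switches on NF-κB. Ikbkb+/+ (n = 4) and Ikbkb-/- (n = 4) microglia all carried floxed Ikbkb alleles. Per the study's methods, IkbkbCA and Ikbkb-/- cells were heterozygous for CreERT2 at the Cx3cr1 locus, their controls had no Cre, and all 4 of these groups received 4-hydroxytamoxifen. Cx3cr1 is expressed by microglia and by other mononuclear phagocytes to which recombination was directed, and the Cre allele and the recombined locus cannot be told apart. Cultured microglia were shaken off mixed glial cultures of newborn cortex and hippocampus, taken from pups 2 to 3 days old. Wild-type cells were then plated before treatment. Adult microglia were enriched with myelin removal beads followed by CD11b beads, after perfusion. The study's methods call the replicates of in vitro experiments biological in general, but neither they nor the labels say which of these libraries came from separate cultures, so p-values measure only the spread between these samples.

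Astrocytes clear glutamate and potassium and couple through gap junctions, and Gfap, Aqp4 and the glutamate transporters Slc1a2 and Slc1a3 are their usual markers. The oligodendrocyte lineage runs from precursors, which express Pdgfra, Cspg4 and the factors Olig1, Olig2 and Sox10, to myelinating cells, which express Mbp, Mag, Mog and Mobp. A mixed glial flask holds astrocytes and cells of the oligodendrocyte lineage beneath the microglia, and an adult brain digest holds myelin and neuronal debris. In bulk RNA, fewer cells of a type and less RNA per cell cannot be told apart.

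Total counts ran from 1672052 to 8349128 per library, in 3′ tag data in which a count does not scale with transcript length. Levels are given as CPM, counts brought to a common library size, after TMM scaling within each experiment, and in the order of the library numbers. The microglial genes Cx3cr1 (965 to 9665 CPM) and Csf1r (512 to 6912 CPM) were high in every library. P2ry12, the homeostatic purinergic receptor, ran from 4.07 to 9.46 CPM in vehicle libraries and from 1907 to 4942 CPM in adult libraries. Ikbkb was at 25.4, 24.9, 18.8 and 22.5 CPM in Ikbkb-/- libraries and at 54.4, 45.9, 53.4 and 55 CPM in Ikbkb+/+ libraries, with no overlap. In IkbkbCA it was at 55.2, 59.8, 55.9, 45 and 46.8 CPM, overlapping IkbkbWT at 45.5, 58.6, 41.2, 44 and 45.1 CPM, and whether the transgene's transcript is counted at this gene is not given in the sources used here.

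RefSeq promoter windows, 250 bases before to 50 after a gene's start on GRCm38.p6, were at hand for 22 of the 35 genes. The NF-κB consensus site was found on either strand in 2 of the 22 (Cnp and Cspg4) and in 8.46% of all 32851 windows, so the members' share was near that background. A stricter form of it, which was searched first, was in 0 of the 22 and in 0.411% of all windows. A match is a description of the letters and not a site. The windows of Cnp (ENSMUSG00000006782) and Slc1a3 (ENSMUSG00000005360) are printed because both genes were called in the tau fibril and the Ikbkb-/- comparison, with opposite signs in each. Capitals mark ACAAAG, the core bound by SOX factors, in Cnp (in 7 of the 22 genes, and 18.7% of all windows), and in Slc1a3 TTTATA, the reverse strand of TATAAA (in 4 of the 22, and 13.6% of all windows).
Cnp (chr11:100574689-100574988, plus strand): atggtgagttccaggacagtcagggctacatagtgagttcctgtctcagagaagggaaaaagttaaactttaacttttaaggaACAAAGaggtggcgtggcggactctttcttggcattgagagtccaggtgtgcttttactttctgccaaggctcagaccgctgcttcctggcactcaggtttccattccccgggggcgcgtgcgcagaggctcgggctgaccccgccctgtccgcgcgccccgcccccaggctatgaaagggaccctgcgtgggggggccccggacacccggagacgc
Slc1a3 (chr15:8710758-8711057, minus strand): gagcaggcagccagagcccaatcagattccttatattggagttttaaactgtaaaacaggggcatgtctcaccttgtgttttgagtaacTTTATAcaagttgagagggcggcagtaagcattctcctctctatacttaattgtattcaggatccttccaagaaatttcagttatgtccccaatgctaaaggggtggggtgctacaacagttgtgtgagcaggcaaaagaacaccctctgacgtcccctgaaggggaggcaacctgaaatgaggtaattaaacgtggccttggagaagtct

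The 3 gene classes stood at different levels in cultured and adult microglia. Of the 35 genes, 32 had a higher mean in the 26 cultured libraries than in the 8 adult ones, and 3 had a higher mean in the adult ones. These were Slc1a3 (969 against 94.3 CPM), Sparcl1 (107.5 against 104 CPM) and Trf (1299.9 against 875 CPM). Gfap, the astrocyte intermediate filament protein, averaged 35.7 CPM in the cultured libraries and 1.65 CPM in the adult ones, and Aqp4, the astrocyte water channel, 20.8 and 1.72 CPM. Adult libraries thus held Slc1a3 at 593 to 1778 CPM beside Gfap at no more than 2.78 CPM and Aqp4 at no more than 5.52 CPM. The cultured mean pools unlike groups, and for some genes a cultured group lay below the adult mean. Slc1a2 averaged 10.8 CPM in Ikbkb+/+ (17.5 CPM in adults), Clu 3.99 CPM in Ikbkb-/- (15.5 CPM) and Cnp 33.5 CPM in vehicle (59.2 CPM). Gfap averaged 111.7 CPM in vehicle but was at 2.24 to 7.14 CPM in Ikbkb+/+ libraries. The experiments were scaled separately and differed in age and isolation, so these levels are set side by side with no test.

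**Figure D1:**
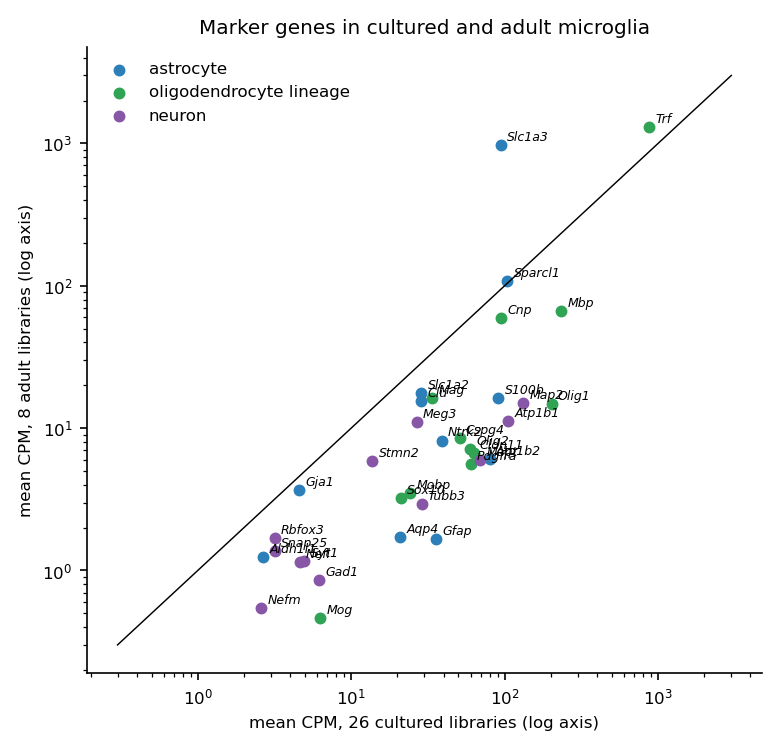
Mean CPM of each of the 35 marker genes in the 26 cultured libraries (x axis, log) and the 8 adult libraries (y axis, log), coloured by class, with the line of equal level. Slc1a3 and Trf lie above the line, Sparcl1 lies next to it and the other genes lie below it.

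Summed over its class, astrocyte RNA had its highest group mean in vehicle cultures at 1569.7, 1471, 1526 and 1482 CPM and its lowest in Ikbkb-/- cultures at 147, 169, 204 and 144 CPM. Without Slc1a3 and Sparcl1 the lowest group means were 69.8 CPM in PS19 and 73.9 CPM in NTG, followed by 100.2 CPM in Ikbkb+/+ and 139 CPM in Ikbkb-/-. The oligodendrocyte lineage sum averaged 753 ± 31.03 CPM (SD, n = 4) in tau fibril cultures and 2703 ± 1283 CPM (SD, n = 5) in IkbkbWT cultures. Without Trf these means were 472.5 and 1344 CPM. Trf, the iron carrier transferrin, was its highest gene, at 974.6 CPM over the 34 libraries. Neuronal RNA, the sum of the neuron list, ranged from 31.7 CPM in a PS19 library to 1021 CPM in a vehicle library. Atp1b1, Map2 and Mapt made up most of the vehicle sum, with means of 379.5, 271 and 128 CPM. Snap25, Syt1 and Rbfox3 averaged 9.07, 17.1 and 7.07 CPM there. More than 3 counts were seen for 25 to 35 of the 35 genes per library. Without Slc1a3, Sparcl1 and Trf, the adult astrocyte sum was 45.9 to 89.8 CPM, against 749 to 1890.1 CPM with them. The adult oligodendrocyte lineage sum was 148 to 299 CPM, against 1302 to 1711 CPM. In adult libraries these sums were thus mostly Slc1a3 and Trf, and which cells their RNA came from was not tested.

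**Figure D2:**
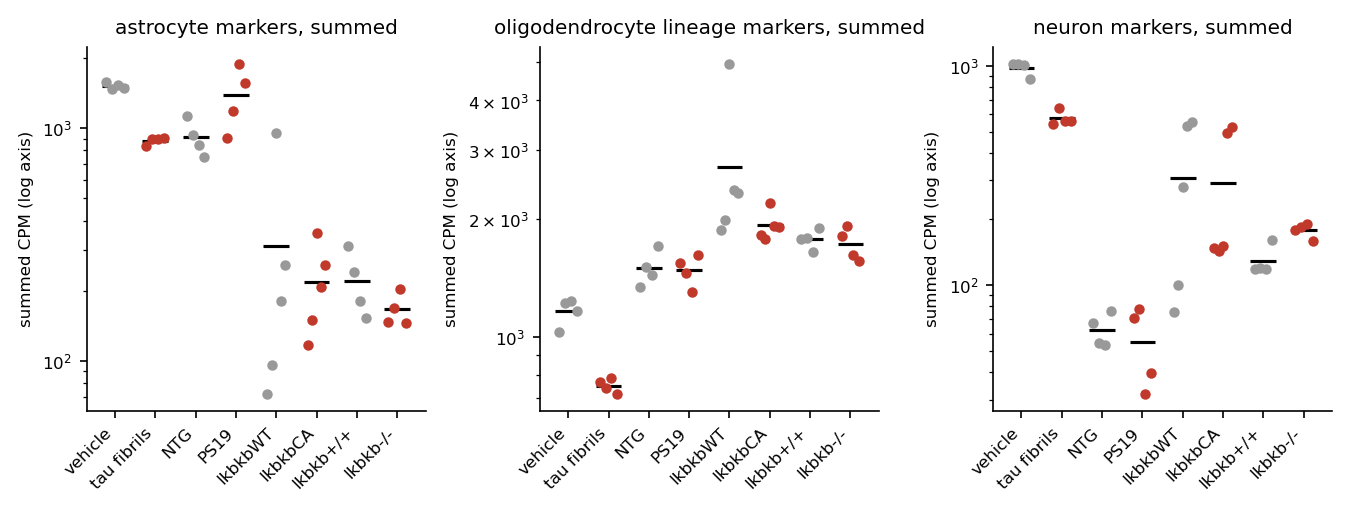
Summed CPM (log axis) of the astrocyte, oligodendrocyte lineage and neuron genes in each library (points) of the 8 groups, with the group mean (line). Tau fibril libraries lie below vehicle libraries in all 3 classes, and 1 IkbkbWT library lies far above the others for astrocyte and oligodendrocyte lineage genes.

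The first comparison asks what tau fibrils change in wild-type microglia. RNA of all 3 classes was lower with tau fibrils. The astrocyte sum was 832, 894, 892 and 906 CPM, the oligodendrocyte lineage sum 768, 743, 787 and 716 CPM and the neuron sum 544, 641, 557 and 558 CPM. In vehicle libraries the same sums were 1569.7, 1471, 1526 and 1482 CPM, 1028, 1221, 1234 and 1168 CPM and 1021, 1017, 1004 and 865 CPM. The groups did not overlap in any class, and the ratios of the means were 0.583, 0.648 and 0.588.

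By edgeR's quasi-likelihood test with Benjamini-Hochberg adjustment (FDR under 0.05), 21 of the 35 genes fell and 1 rose, out of 33 that passed the filter on low counts. Of all 10408 genes tested, 29.9% were called, 15.4% lower and 14.5% higher. In 21 members every tau fibril library lay below every vehicle library and in 1 every library lay above, beside 14.2% and 14.1% of all genes tested. By class, 8 of 11 astrocyte genes, 4 of 12 oligodendrocyte lineage genes and 9 of 12 neuron genes fell. The median log2 fold change of the tested members was -0.75, beside -0.01 over all genes. With total-count scaling these medians were -0.90 and -0.16, and 24 members fell. Without 1 library at a time, 20 to 23 members were called.

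Among astrocyte genes, the glutamate-aspartate transporter Slc1a3 was at 119.5, 147, 116 and 155 CPM with tau fibrils and at 299, 284, 279 and 276 CPM with vehicle (log2 fold change -1.08, SE 0.13, FDR 2.54e-07). Sparcl1, a secreted matricellular protein that promotes synapse formation, was at 244, 248, 263 and 191 CPM against 387, 390.0, 408 and 404 CPM (log2 fold change -0.75, SE 0.13, FDR 4.73e-05). In both genes every tau fibril library lay below every vehicle library. S100b, a calcium-binding protein also made by the oligodendrocyte lineage, was at 39.6, 47.8, 54 and 61.9 CPM against 98, 112, 104 and 98.7 CPM (log2 fold change -1.02, SE 0.15, FDR 7.18e-06). Ntrk2, the BDNF receptor, was at 44.5, 43.3, 44.1 and 47 CPM against 99.1, 80.9, 91.3 and 106 CPM (log2 fold change -1.07, SE 0.15, FDR 3.19e-06). Atp1b2, a sodium pump subunit, was at 155, 172, 177 and 180.5 CPM against 344, 251, 257 and 245 CPM (log2 fold change -0.68, SE 0.13, FDR 0.000294). None of these 3 overlapped between groups. Slc1a2, Clu and the gap junction gene Gja1 also fell, Gja1 not without vehicle library 2. Gfap (log2 fold change -0.36, SE 0.15, FDR 0.0776), Aqp4 (log2 fold change -0.43, SE 0.17, FDR 0.063) and Aldh1l1 (log2 fold change 0.20, SE 0.40, FDR 0.768) did not pass the test.

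In the oligodendrocyte lineage, called genes went both ways. Olig1, a factor that drives lineage differentiation, was at 207, 205, 149 and 114 CPM against 339, 385, 384 and 406 CPM (log2 fold change -1.17, SE 0.15, FDR 1.25e-06). Olig2, which specifies the lineage, was at 23.4, 27.1, 42.5 and 25.6 CPM against 71.7, 71.3, 68.6 and 78 CPM (log2 fold change -1.27, SE 0.18, FDR 5.46e-06). Neither overlapped between groups, and the growth factor receptor Pdgfra also fell. Of the precursor genes, Sox10 (log2 fold change -0.77, FDR 0.0982) and Cspg4 (log2 fold change -0.18, FDR 0.525) did not pass. Of the myelin genes, Mbp, the main protein of compact myelin, was at 87.1, 84.3, 99.6 and 113 CPM against 78.7, 97.6, 119.7 and 112 CPM (log2 fold change -0.09, SE 0.15, FDR 0.703), with overlap. Mag (log2 fold change 0.26) and Cldn11 (log2 fold change -0.01) did not pass either, and Mog and Mobp were below the filter. Trf was at 274, 266, 309 and 274 CPM against 363, 503, 467 and 396 CPM and fell (log2 fold change -0.62, SE 0.13, FDR 0.000509).

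Cnp, which encodes a phosphodiesterase of myelinating cells, was the 1 gene that rose, and it is given here because of its values, outside the rule for named genes. It was at 63.1, 62.2, 68.7 and 60.3 CPM with tau fibrils and at 21, 30.9, 41.6 and 40.4 CPM with vehicle (log2 fold change 0.93, SE 0.19, FDR 0.000398). The groups did not overlap.

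Neuronal genes were lower as a class. Map2, a dendritic microtubule protein, was at 121, 153, 139 and 177 CPM against 279, 298, 287 and 221 CPM (log2 fold change -0.88, SE 0.14, FDR 1.75e-05). Mapt, which encodes tau itself, was at 65.5, 85.7, 82.2 and 75.8 CPM against 123, 139, 131 and 117 CPM (log2 fold change -0.72, SE 0.14, FDR 0.000183). Tubb3, neuronal tubulin, was at 38.4, 42.8, 39.7 and 34.7 CPM against 74.6, 92.9, 54.4 and 65.5 CPM (log2 fold change -0.89, SE 0.18, FDR 0.000297). Atp1b1, another sodium pump subunit, was at 256, 288, 236 and 199 CPM against 409.9, 369, 408 and 332 CPM (log2 fold change -0.63, SE 0.13, FDR 0.000584), and no library of these 4 genes overlapped between the groups. Stmn2, Syt1, Meg3, Snap25 and Gad1 also fell. The Gad1 call was lost in 7 of 13 alternatives (without tau fibril library 1, 2 or 3, without vehicle library 1 or 2, with DESeq2 and with no filter), and the Snap25 call in 4 (without tau fibril library 1, 2 or 3 or vehicle library 3). Rbfox3, Nefl and Nefm did not pass.

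**Figure D3:**
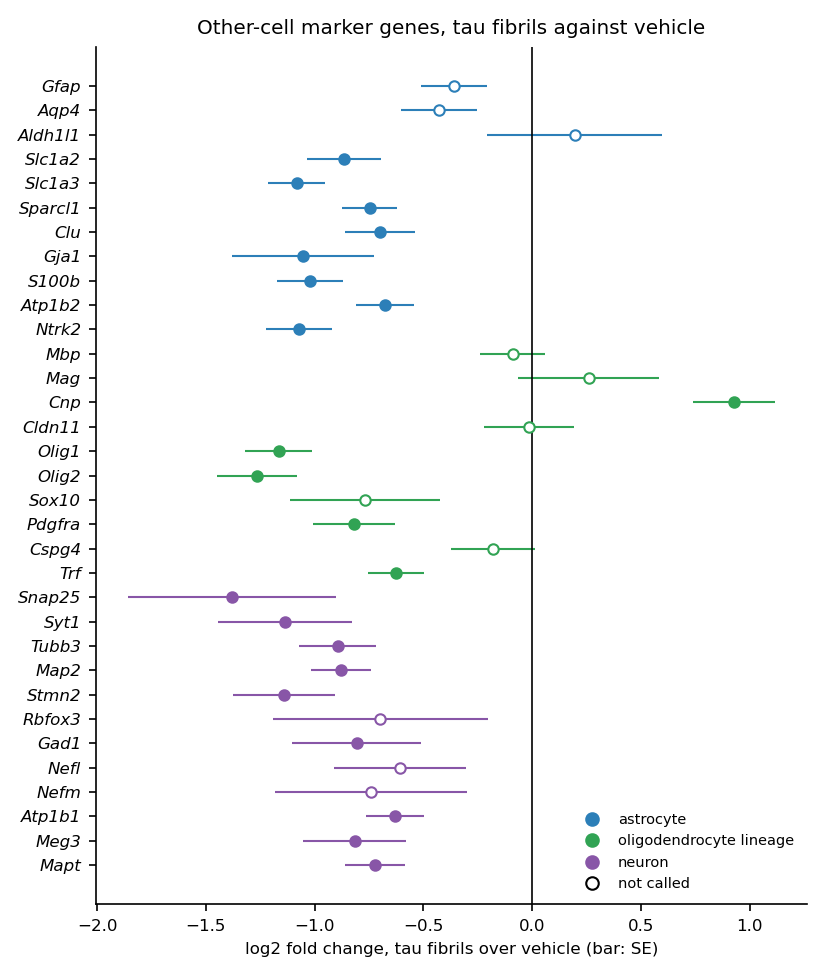
Log2 fold change of tau fibrils over vehicle (x axis, bars are SE) for the 33 marker genes that passed the filter, coloured by class, with open circles for genes not called. Cnp is the 1 called gene to the right of 0, and the 21 called genes to the left include 8 astrocyte and 9 neuron genes.

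Further markers of the same cells were counted as well. Of 18 further astrocyte genes, 13 were tested and 13 fell, among them Fabp7 (log2 fold change -1.37), Aldoc (log2 fold change -1.06) and Cpe (log2 fold change -0.76). Of 20 further neuron genes, 13 were tested and 10 fell, including Rtn1 (log2 fold change -0.93). Of 18 further oligodendrocyte lineage genes, 9 were tested and 4 fell, including Ugt8a (log2 fold change -1.02). Of 15 endothelial and mural genes, 4 were tested and 3 fell, including the smooth muscle actin Acta2 (log2 fold change -1.62). Of 18 microglial identity genes, 17 were tested and 11 rose, including Csf1r (log2 fold change 1.22), Cx3cr1 (log2 fold change 1.08) and Tmem119 (log2 fold change 2.27). Their summed level was 17455 to 20085 CPM with tau fibrils and 8139 to 10446 CPM with vehicle. The part of this rise in the members' fall was not tested. Of 10 genes of a fibroblast list, 4 were tested, Sparc fell (log2 fold change -0.86) and Igfbp4 rose (log2 fold change 2.30).

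The second comparison asks what microglia of PS19 mice change at 11 months. By the same edgeR test, 0 of the 25 members tested were called, where 0.0707% of 11323 genes were called. No tested member separated the genotypes without overlap, where 5.77% of all genes tested did (3.29% higher and 2.47% lower). Aldh1l1, which was below the filter, lay wholly higher in PS19. It was at 1.48, 2.13, 2.1 and 1.97 CPM, against 0.502, 0.386, 1.38 and 0 CPM in NTG. DESeq2 and limma-voom also called 0, and 1 member had an unadjusted p under 0.05. This was Slc1a3, at 764, 918, 1778 and 1379 CPM in PS19 and 917, 736, 668 and 593 CPM in NTG (log2 fold change 0.73, SE 0.27, FDR 0.459, unadjusted p = 0.0164). PS19 libraries 3 and 4 lay above all NTG libraries, whereas library 1 lay within the NTG range and library 2 was level with the top of it. Libraries 3 and 4 also had the lowest Xist of the adult libraries, at 3.93 and 1.67 CPM against 25.6 to 29.1 CPM in NTG. Whether they form a set of their own was not tested. Trf was at 1249, 1262, 1154 and 1458 CPM in PS19 and 1169, 1333, 1252 and 1522 CPM in NTG (log2 fold change -0.04, SE 0.18, FDR 0.969). Sparcl1 was at 68.9, 190.5, 66.1 and 101 CPM against 115, 122, 108 and 88.4 CPM (log2 fold change -0.03, SE 0.30, FDR 0.989). Both overlapped between genotypes. Gfap was at 1.65, 1.33, 2.36 and 1.52 CPM in PS19 and 2.01, 0.386, 1.18 and 2.78 CPM in NTG, and Gfap, Aqp4, Aldh1l1 and 6 neuron genes were among the 10 members below the filter.

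PS19 library 1 was the highest of the 8 adult libraries for 8 of 12 oligodendrocyte lineage genes. The same held for 2 of 11 astrocyte genes and 2 of 12 neuron genes, and the share over all genes is not given. Olig1 was at 48.3, 10.1, 1.97 and 2.73 CPM in PS19 and 14.1, 18.5, 11.2 and 11.7 CPM in NTG. Library 1 was thus the highest, while PS19 libraries 3 and 4 were the lowest of the 8. Pdgfra showed the same arrangement, at 16.3, 4.79, 2.23 and 0.456 CPM against 7.03, 5.4, 4.92 and 3.33 CPM. Mbp overlapped between the genotypes, at 82.7, 61.7, 50.5 and 70.8 CPM against 64.2, 59.4, 71.1 and 67.8 CPM. In the same library the proliferation gene Top2a was at 117 CPM, against 17.6 to 43.9 CPM in the other 7, and Xist was at 161 CPM, against 1.67 to 29.1 CPM, though the labels give all 8 mice as male. The Y-linked genes Ddx3y (111.6 CPM, against 92.3 to 206 CPM) and Eif2s3y (16.5 CPM, against 20 to 35.9 CPM) were present there as well. Without PS19 library 1, Olig1 had a log2 fold change of -1.56 (FDR 0.456) in place of 0.19 (FDR 0.969), and still 0 members were called. Among neuron genes, Map2 was at 28.7, 19.4, 5.64 and 5.92 CPM against 19.1, 12.7, 17.7 and 11.1 CPM, Atp1b1 at 6.92, 16.2, 8 and 19.9 CPM against 7.53, 6.17, 7.09 and 18.3 CPM, and Mapt at 10.9, 6.92, 2.23 and 1.67 CPM against 3.51, 9.25, 6.5 and 6.67 CPM. All 3 overlapped. S100b overlapped as well, at 26.9, 14.9, 9.96 and 8.2 CPM against 22.6, 18.9, 15 and 13.9 CPM.

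The third comparison asks what constitutively active IKKβ changes in cultured microglia. Before the genotypes are compared, the 10 libraries were put into 3 sets, with libraries 1 and 2, library 3, and libraries 4 and 5 of each genotype together. The labels name no such sets, which were inferred from genes outside these lists that are not given here. A chi-square of the difference between 2 libraries, per degree of freedom, was lowest for libraries 1 and 2 (3.09 in IkbkbWT, 3.25 in IkbkbCA). For libraries 4 and 5 it was 4.46 and 4.89. Xist, given below, placed library 3 with libraries 1 and 2. Whether library 3 of the 2 genotypes belongs together was not tested. Library 3 of both genotypes was high in myelin RNA. Mbp was at 112, 169, 1972, 237 and 261 CPM in IkbkbWT and 129.8, 151, 717, 190.5 and 249.6 CPM in IkbkbCA. S100b was at 27, 36, 609.8, 74.5 and 94.2 CPM and 31.6, 34.7, 228, 68.4 and 86.9 CPM in the same order. In both genes library 3 was the highest of its genotype. In IkbkbWT it was above the other 4 libraries for 7 of 12 oligodendrocyte lineage genes and 11 of 11 astrocyte genes, and its level was 27.1 times the mean of the others for Mog, 11.6 times for Mag and 10.6 times for Mobp. In IkbkbCA library 3 was above the others for 6 of 12 oligodendrocyte lineage genes and 4 of 11 astrocyte genes, and 8.05 times their mean for Mog. For neuron genes library 3 was above the others in 1 of 12 in IkbkbWT and 0 of 12 in IkbkbCA. How many of all genes were highest in library 3 is not given, so these counts have no background beside them. The precursor genes Olig2, Sox10 and Cspg4 were not highest in library 3 of either genotype.

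In both genotypes libraries 4 and 5 lay above libraries 1 and 2 for 12 of 12 neuron genes and 11 of 12 oligodendrocyte lineage genes. For astrocyte genes this held for 8 of 11 in IkbkbWT and 5 of 11 in IkbkbCA. The share of all genes with this order is not given, so these counts describe the members and do not set them apart. Map2 was at 27.6, 48, 85.8, 205 and 219 CPM in IkbkbWT and 78.8, 71, 48.7, 221 and 250.1 CPM in IkbkbCA. Atp1b1 was at 3.9, 2.24, 26.4, 32.3 and 39.1 CPM and 6.12, 8.25, 9.38, 36.7 and 33.3 CPM, and Mapt at 20.8, 26.4, 115, 93.3 and 93.8 CPM and 38, 35.1, 54.8, 84 and 87.9 CPM. For Map2 the split between sets exceeded any gap between the genotypes. Stmn2, which guides axon growth, averaged 37.0 CPM in IkbkbWT libraries 4 and 5 and 1.26 CPM in libraries 1 and 2. In IkbkbCA those means were 32.5 and 1.08 CPM. Xist was at 2.76, 1.83, 1.73, 473 and 494 CPM in IkbkbWT and 277, 268, 263, 149 and 155 CPM in IkbkbCA, so the sex of the pups, which the labels do not give, also differed between libraries, and its part in these levels was not tested.

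**Figure D4:**
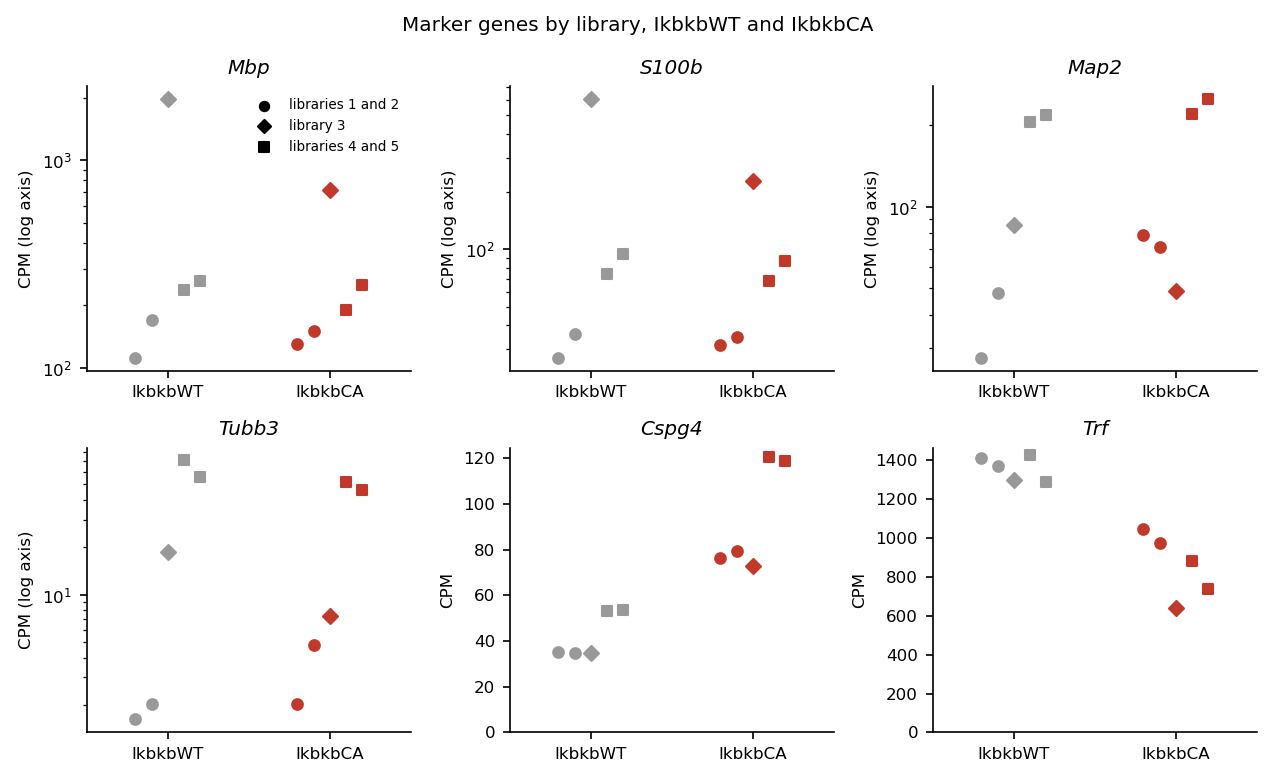
CPM of 6 marker genes in each IkbkbWT and IkbkbCA library, with circles for libraries 1 and 2, a diamond for library 3 and squares for libraries 4 and 5 (log axes for Mbp, S100b, Map2 and Tubb3, linear axes from 0 for Cspg4 and Trf). Mbp and S100b are highest in library 3 and Map2 and Tubb3 in libraries 4 and 5 of both genotypes, while Cspg4 and Trf separate the genotypes.

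Between the genotypes, 1 member rose and 1 fell by the edgeR test, out of 29 tested, beside 14.5% of 11697 genes called (7.31% higher and 7.16% lower). Cspg4, the NG2 proteoglycan of oligodendrocyte precursors and pericytes, was at 76.1, 79.6, 72.8, 120.4 and 119 CPM in IkbkbCA and 35.1, 35, 34.8, 53.1 and 53.5 CPM in IkbkbWT (log2 fold change 1.14, SE 0.19, FDR 0.00214). Trf was at 1049, 977, 642, 882 and 739 CPM in IkbkbCA and 1413, 1373, 1296, 1427 and 1286 CPM in IkbkbWT (log2 fold change -0.66, SE 0.13, FDR 0.00398). These 2 members were also the only ones of 35 without overlap between genotypes, where 6.38% of all genes lay wholly higher and 6.34% wholly lower in IkbkbCA. Each kept its direction and call in all 18 alternatives, including the fit with the 3 sets as a covariate (log2 fold changes 1.17 and -0.65). The other precursor genes Olig1 (log2 fold change 0.29), Olig2 (log2 fold change 0.17), Sox10 (log2 fold change 0.06) and Pdgfra (log2 fold change 0.34) did not pass. For Mbp the log2 fold change was -0.94 with an SE of 0.78, and for Mog -1.19 with an SE of 1.12.

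Olig1 overlapped, at 209, 214, 141, 237 and 269.8 CPM in IkbkbCA and 101, 123, 225, 201 and 227 CPM in IkbkbWT. Slc1a3 was at 29.4, 31.8, 25.7, 31.4 and 34.8 CPM in IkbkbCA and 11.9, 13.2, 53.1, 17 and 22.8 CPM in IkbkbWT, so that the IkbkbCA libraries exceeded 4 of the 5 IkbkbWT libraries. Without IkbkbWT library 3, Slc1a3 had a log2 fold change of 0.91 (FDR 0.00817) and Slc1a2 one of 0.82 (FDR 0.0153), and 4 members were called by edgeR instead of 2. Without library 3 of both genotypes, an alternative chosen after seeing the data, Slc1a3 had a log2 fold change of 0.99 and Slc1a2 one of 0.74. With all libraries kept and the 3 sets as a covariate, Slc1a3 had a log2 fold change of 0.58 (FDR 0.129) and Slc1a2 one of 0.43 (FDR 0.169) by edgeR, and neither was called. Sparcl1 was low, at 5.78, 7.29, 12.7, 3.07 and 7.76 CPM against 1.95, 3.05, 24.2, 6.45 and 11.8 CPM. Of 18 further astrocyte genes 12 were tested, of 18 further oligodendrocyte lineage genes 15 and of 20 further neuron genes 10, and 0 were called in each list, with 1, 0 and 0 at an unadjusted p under 0.05. Of the microglial identity genes 6 rose and 2 fell, and of 4 endothelial and mural genes tested 0 were called. Of 2 genes tested from the fibroblast list, Igfbp4 fell (log2 fold change -0.81).

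The fourth comparison asks what loss of IKKβ changes. Oligodendrocyte lineage RNA was higher in Ikbkb-/- cultures apart from Trf, and Slc1a3 and Sparcl1 were lower. By the edgeR test 10 of 35 members rose and 3 fell, out of 29 tested, beside 14.6% of 11242 genes called (7.64% higher and 6.96% lower). In 9 members every Ikbkb-/- library lay above every Ikbkb+/+ library and in 1 below, beside 9.44% and 8.67% of all genes. Of the 12 oligodendrocyte lineage genes, 12 were tested, 7 rose and 1 fell, and the median log2 fold change was 0.56 against 0.00 over all genes. Neuron genes had 2 that rose among 8 tested, and astrocyte genes 1 that rose and 2 that fell among 9.

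Cnp was at 119.7, 120.5, 129.6 and 145 CPM in Ikbkb-/- and 83.5, 82.7, 70.6 and 69.2 CPM in Ikbkb+/+ (log2 fold change 0.77, SE 0.09, FDR 1.38e-05). Cldn11, the tight junction protein of myelin, was at 68.3, 70, 84.6 and 63.2 CPM against 48.1, 38.7, 32.7 and 43.4 CPM (log2 fold change 0.83, SE 0.12, FDR 0.000101). Both groups were separate for these myelin genes. Mbp was at 166, 182, 169.5 and 151 CPM against 123, 132, 87.5 and 109 CPM (log2 fold change 0.57, SE 0.11, FDR 0.0013). Mobp, a protein of compact myelin, was at 14.1, 19.2, 20.9 and 21.9 CPM against 12.3, 12, 8.27 and 11.1 CPM (log2 fold change 0.86, SE 0.17, FDR 0.00172). Mag, an adhesion molecule of the inner myelin wrap, was at 25.4, 27, 33.3 and 36.9 CPM against 23.5, 20, 12.1 and 13 CPM (log2 fold change 0.93, SE 0.19, FDR 0.00232). No library of these 3 overlapped between genotypes. Olig1 was at 155, 164, 187 and 158 CPM against 91.3, 113, 111 and 138 CPM (log2 fold change 0.54, SE 0.11, FDR 0.00157), and S100b at 66.6, 62.2, 85.1 and 71.9 CPM against 35.4, 39, 44.3 and 57.7 CPM (log2 fold change 0.67, SE 0.14, FDR 0.00209), again without overlap.

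Sox10 rose as well (log2 fold change 0.52, FDR 0.0188), and its call was lost without Ikbkb+/+ library 2 or 3. Olig2 (log2 fold change 0.32), Pdgfra (log2 fold change 0.27), Cspg4 (log2 fold change 0.38) and Mog (log2 fold change 0.72) did not pass. Trf moved the other way, at 1067, 1119, 799 and 809 CPM against 1245, 1246, 1189 and 1328 CPM (log2 fold change -0.40, SE 0.10, FDR 0.0139), with every Ikbkb-/- library below every Ikbkb+/+ library. Its call was lost without Ikbkb-/- library 3. Of 18 further oligodendrocyte lineage genes 13 were tested and 7 rose, including Gpr17 (log2 fold change 0.63) and Bcas1 (log2 fold change 0.72). Of the further astrocyte genes 1 of 10 rose, and of the further neuron genes 2 of 8.

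Mapt was at 48, 56.3, 49.9 and 42.4 CPM in Ikbkb-/- and 30.2, 33.9, 34.7 and 42.6 CPM in Ikbkb+/+ (log2 fold change 0.45, SE 0.12, FDR 0.0157), with a narrow overlap. Map2 was at 65.5, 65.8, 83.7 and 67.8 CPM against 51.1, 45, 47 and 67 CPM (log2 fold change 0.42, SE 0.13, FDR 0.0311), where Ikbkb+/+ library 4 lay within the Ikbkb-/- range. The Map2 call was lost without any 1 of Ikbkb+/+ libraries 1 to 3 or Ikbkb-/- libraries 3 and 4, and the Mapt call without Ikbkb-/- library 2. Atp1b1 overlapped, at 7.34, 11.2, 9.84 and 4.79 CPM against 2.98, 7.37, 8.1 and 6.22 CPM.

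Slc1a3 was at 14.7, 23.6, 28.4 and 19 CPM in Ikbkb-/- and 197, 129.7, 72.7 and 21.6 CPM in Ikbkb+/+ (log2 fold change -2.19, SE 0.44, FDR 0.00209). Ikbkb+/+ library 4 lay within the Ikbkb-/- range, and the other 3 lay above it. Sparcl1 was at 1.69, 9.06, 7.73 and 3.5 CPM against 28, 16.4, 10.4 and 6.61 CPM (log2 fold change -1.24, SE 0.40, FDR 0.0486), with library 4 again inside the Ikbkb-/- range. Its call was lost in 10 of 15 alternatives, among them those without Ikbkb+/+ library 1, 2 or 3 or Ikbkb-/- library 1, 3 or 4, and that of Slc1a3 with limma-voom.

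The same 3 Ikbkb+/+ libraries held more of other RNA than the remaining cultures of the Ikbkb experiments. Siglech, a receptor of microglia, was at 316, 206, 92.2 and 9.79 CPM in Ikbkb+/+ libraries 1 to 4 and at 8.11 to 15.8 CPM in the Ikbkb-/-, IkbkbCA and IkbkbWT libraries. Its adult level was 964 to 2452 CPM. P2ry12 was at 498, 419, 282 and 111 CPM against 30.9 to 147 CPM. These 3 libraries were thus the highest of the 18 for both microglial genes. They were also highest for Cx3cr1, at 2917, 2582 and 2218 CPM against no more than 1971 CPM. They were not for Tmem119 (232, 202.5 and 121 CPM, against up to 233 CPM in IkbkbCA). Nor were they for Csf1r (2158, 2164 and 1828 CPM, against up to 2267 CPM in IkbkbCA). Of the 18 microglial identity genes, 2 rose and 4 fell in Ikbkb-/-, beside 7.64% and 6.96% of all genes. The endothelial gene Cldn5 was at 5.97, 8, 4.63 and 0 CPM in Ikbkb+/+, and at no more than 0.384 CPM in the other 3 groups. Ly6c1, also endothelial, was at 10.8, 8.63, 2.81 and 0.265 CPM, and at no more than 0.632 CPM in the other 3 groups. Over the whole list of 15 endothelial and mural genes the sum was 75.3 to 163 CPM in Ikbkb+/+ and 181 to 235 CPM in Ikbkb-/-, where Flt1, a VEGF receptor, averaged 189 CPM and rose (log2 fold change 1.16), while Pecam1 fell (log2 fold change -2.01). Both genes tested from the fibroblast list fell, Sparc (log2 fold change -2.24) and Igfbp4 (log2 fold change -1.27). Summed, that list was at 471 to 1394 CPM in Ikbkb+/+ and at 4428 to 8202 CPM in adult NTG microglia. Whether its genes mark fibroblasts in these libraries was not tested. With Ikbkb+/+ library 4 alone as control, in a fit of both Ikbkb experiments that takes the lone library to vary like the others, the log2 fold change was 0.00 for Slc1a3, -0.20 for Sparcl1, 0.89 for Cnp and 0.60 for Mbp, and 0 members were called by edgeR (lowest member FDR 0.562, and 1 member, Trf, with an unadjusted p under 0.05). No other tool was run on that subset. The part of the cells that carry this other RNA in the fall of Slc1a3 and Sparcl1 was not tested.

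**Figure D5:**
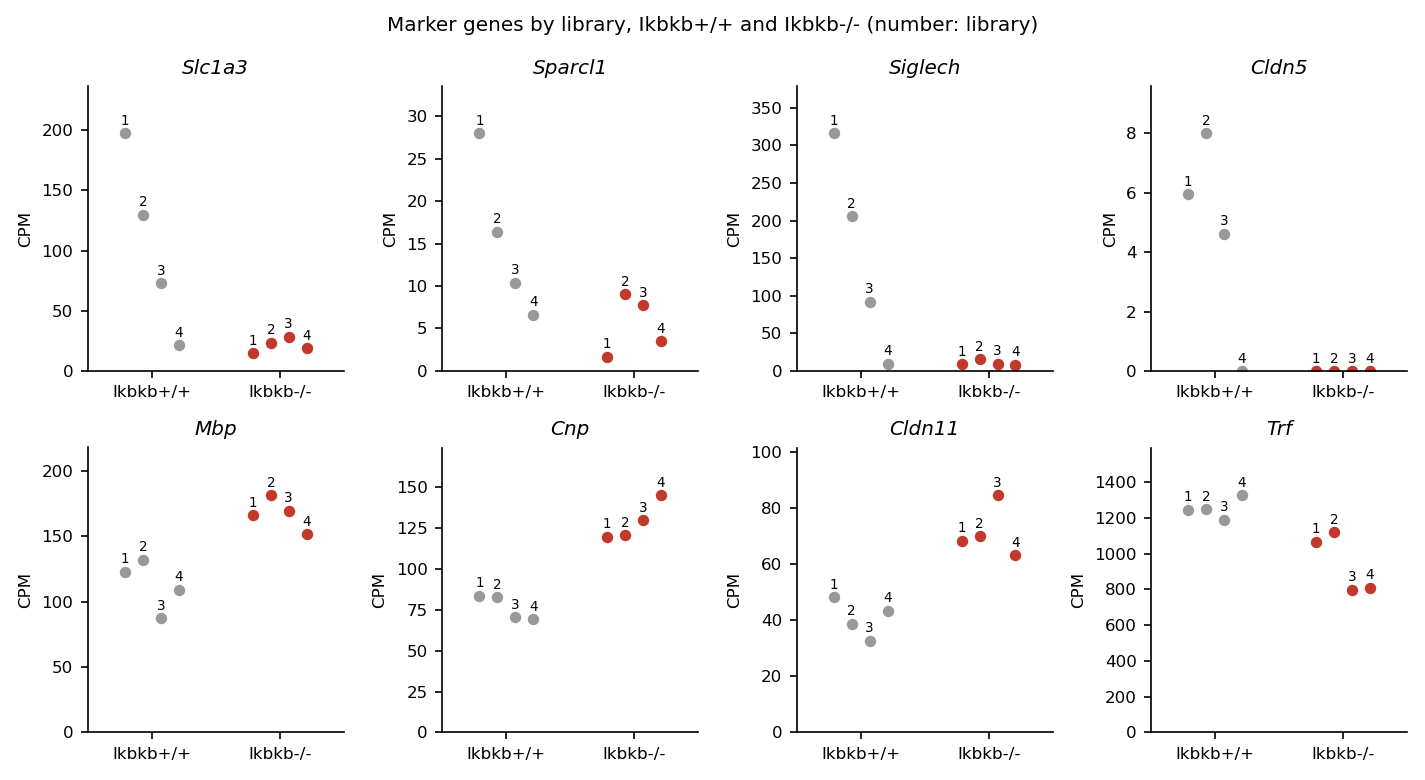
CPM (linear axes from 0) of 8 genes in each Ikbkb+/+ and Ikbkb-/- library, numbered. Slc1a3, Sparcl1, Siglech and Cldn5 are high in Ikbkb+/+ libraries 1 to 3 and low in library 4, whereas Mbp, Cnp, Cldn11 and Trf separate the genotypes with library 4 among its own group.

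Xist was at 10.7, 5.69, 9.14 and 9.77 CPM in Ikbkb-/- and 248, 278, 378 and 399 CPM in Ikbkb+/+, so the sex of the pups and the genotype cannot be told apart here. Top2a was at 83, 86, 99.8 and 101 CPM against 218, 223, 247 and 236 CPM, and its part in the members' levels was not tested. In the fit of all 18 Ikbkb libraries, which takes its spread from the IkbkbWT and IkbkbCA sets as well, 1 member was called (Slc1a3) instead of 13.

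Both Ikbkb comparisons used Cre-negative controls of their own, so their effects could be set against each other. Of 33 members tested, 1 differed between the IkbkbCA and the Ikbkb-/- effect by edgeR, beside 3.12% of 12352 genes (2.23% higher and 0.899% lower). This was Slc1a3, whose IkbkbCA effect minus Ikbkb-/- effect was 2.63 on the log2 scale (SE 0.67, FDR 0.0363), and its Ikbkb-/- effect is the one that was 0.00 with Ikbkb+/+ library 4 alone. The call was lost in 12 of 21 alternatives, each of them leaving out 1 library (IkbkbWT 1, 2, 4 or 5, IkbkbCA 4 or 5, Ikbkb+/+ 1 or 2, or any 1 Ikbkb-/- library), with differences of 2.17 to 2.78. Cnp differed by -1.12 (SE 0.46, FDR 0.241) and Cspg4 by 0.77 (SE 0.27, FDR 0.152), and neither passed.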

How the data were processed

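Counts were deposited by the authors, 1 file per library, with whole-number counts per Ensembl gene and 5 closing lines of unassigned reads. Per the study's methods, the QuantSeq 3′ libraries were mapped with the Lexogen QuantSeq 2.2.3 pipeline on GRCm38. The methods name RSEM for count tables, but whether it made these files is not given in the sources used here. Reads outside genes were 12.4 to 38.3% and stayed out of library sizes. Names and places came from GENCODE M21. Each experiment was filtered with filterByExpr (minimum count 10, total 15), scaled by TMM and tested with edgeR 4.0.16 (quasi-likelihood, Benjamini-Hochberg FDR under 0.05), adjusted over all genes tested. R 4.3.3, limma 3.58.1 and DESeq2 1.42.0 served for alternatives. Simulated counts were given known log2 changes of 1 or 2 in either direction, and none smaller, although many members moved by less. The fits recovered 90.2% (tau fibrils), 49.7% (PS19), 79.1% (IkbkbCA) and 91.7% (Ikbkb-/-) of these changes. False calls were 6.9%, 3.1%, 3.2% and 2.7% of the calls in the same order. A change in PS19 could therefore go uncalled. Summed levels and levels between experiments carry no test. Members and lists were chosen with earlier results of these data known. By rule, values of each library are given for up to 10 called members per comparison with a mean of 10 counts in the higher group, by lowest p, and for the 3 highest members of a class. None of the 56 pairs of libraries within a group was identical, and each differed by more than sampling noise.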

Additional observations from a re-analysis of the deposited data

Results flagged for a closer look

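Of 258 values checked (a class sum, or a member with a mean of 10 counts in its group), 32 had 1 library farther from the others than Dixon's 95% limit allows. Chance alone flags about 1 in 20.

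IkbkbWT library 3 stood out in 2 class sums and 12 genes. It was at 954.9 CPM for the astrocyte sum and 4967 CPM for the oligodendrocyte lineage sum. Its single genes were Gfap at 48.1, Aqp4 at 24.8, Slc1a2 at 29.2, Slc1a3 at 53.1, Gja1 at 12.3, S100b at 609.8, Mbp at 1972, Mog at 83.1, Mag at 280.3, Cnp at 335.3, Mobp at 245.8 and Cldn11 at 302.0 CPM. IkbkbCA library 3 stood out in the same direction for S100b at 228.0, Mbp at 717.3, Mog at 27.6, Mag at 104.6 and Mobp at 68.0 CPM. Atp1b2 was high in IkbkbCA library 5 at 23.8 CPM.

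In the tau experiment, tau fibril library 2 was high for the neuron sum at 640.9 CPM and for Nefl at 14.4 CPM and low for Pdgfra at 21.6 CPM. Tau fibril library 3 was high for Gja1 at 6.75 CPM. Vehicle library 4 was low for the neuron sum at 865 CPM, and vehicle library 1 was high for Atp1b2 at 344 CPM.

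In the other groups, Ikbkb+/+ library 4 was high for the neuron sum at 160.5 CPM and for Slc1a2 at 14.5 CPM, Ikbkb+/+ library 2 was low for Mog at 1.47 CPM, Ikbkb-/- library 3 was high for Map2 at 83.7 CPM, PS19 library 2 was high for Stmn2 at 9.05 CPM and NTG library 4 was high for Atp1b1 at 18.3 CPM. Slc1a3 was the 1 member whose IkbkbCA and Ikbkb-/- effects differed by edgeR's test of the difference, by 2.63 on the log2 scale.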

How the results depend on the processing

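No analysis paired by the labels was possible because they number samples in 1 running series and give the groups no shared replicate numbers. The 3 sets used as a covariate for IkbkbCA were inferred from the data. In the alternatives run, the PS19 count stayed at 0 members and the tau count within 20 to 25. Leaving out 1 library at a time moved the counts to 20 to 23 (tau fibrils), 0 to 0 (PS19), 2 to 4 (IkbkbCA), 10 to 17 (Ikbkb-/-) and 0 to 1 (difference of effects). Alternatives chosen after seeing the data were the 3 culture sets, omission of library 3 of both genotypes (4 members called instead of 2 for IkbkbCA), Ikbkb+/+ library 4 alone as control (0 instead of 13, and 0.0043 in place of -2.19 on the log2 scale for Slc1a3) and sums without Slc1a3, Sparcl1 and Trf. The planned fit of all 18 Ikbkb libraries called 1 instead of 13. The cause of these changes was not tested.

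For summed levels, total-count scaling gave ratios of 0.526 and 0.584 for astrocyte and oligodendrocyte lineage genes with tau fibrils, in place of 0.583 and 0.648. Without Slc1a3, Sparcl1 and Trf the astrocyte ratio was 0.614 with tau fibrils, 0.946 in PS19 (1.52 with them) and 1.39 in Ikbkb-/- (0.752 with them). Without Slc1a3 alone it was 0.969 in PS19 and 1.25 in Ikbkb-/-. Without Trf, as without all 3 genes, the Ikbkb-/- oligodendrocyte lineage ratio was 1.49 in place of 0.973. Within the first set, of libraries 1 and 2, the IkbkbCA astrocyte ratio was 1.59 in place of 0.695. Without 1 library at a time, the ratios for astrocyte, oligodendrocyte lineage and neuron genes ran from 0.577 to 0.593, 0.624 to 0.661 and 0.566 to 0.599 with tau fibrils, from 1.34 to 1.70, 0.955 to 1.04 and 0.757 to 1.00 in PS19, from 0.583 to 1.44, 0.661 to 0.900 and 0.757 to 1.18 in IkbkbCA, and from 0.682 to 0.869, 0.938 to 1.00 and 1.34 to 1.498 in Ikbkb-/-. Thinned to 1672052 counts, libraries held more than 3 counts for a median of 27 members in place of 32.5, so absence of a rare gene is not shown at this depth.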
